A study of Mus musculus with 5 samples.

Results

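The genes described here are those of the step from 8 to 12 hours in a time course of mouse bone marrow-derived macrophages treated with lipopolysaccharide (LPS), the bacterial cell wall component that activates macrophages through Toll-like receptor signalling. Of the 13339 genes in the table, 9795 had a mean of at least 1 FPKM (fragments per kilobase of transcript, scaled to library size) over the 5 libraries, and these were all compared between the 12 h library and the 8 h library. The macrophages came from the marrow of C57BL/6 mice aged 8 weeks, were grown for 5 days with the growth factor M-CSF, and carry names that begin with WT. They received LPS at 100 ng/ml for 4, 8, 12 or 24 h, and the culture at 0 h received none. Each time has 1 library, so that no difference has a replicate check and no test was possible. No untreated culture of 8 or 12 h was analysed here, so the hours in culture and the hours of LPS cannot be told apart. The series title asks about the histone methyltransferase Setd2, lipid metabolism and the resolution of inflammation, and all 5 cultures share the WT name. One protocol field names dendritic cells in place of macrophages.

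After LPS, macrophages first transcribe cytokines, chemokines and the inhibitors that limit these same signals, and most of those transcripts are short-lived. In the hours that follow, the cells are known to move to aerobic glycolysis, to turn on the antioxidant program driven by the transcription factor NRF2, and to adjust sterol synthesis and export. Resolution is the later period in which inflammatory transcripts decline and genes of repair and of resting macrophage identity return.

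All 10 macrophage markers on the list (among them Adgre1, Cd68, Csf1r and Lyz2) were present in both libraries, with a summed level of 3469 FPKM at 8 h and 3834 at 12 h. Of 12 dendritic cell markers 11 were listed and summed to 868 and 1110 FPKM, of which Bst2, also an interferon-stimulated gene, made 831 and 1079. The 10 listed of 12 neutrophil markers summed to 261 and 188 FPKM. In bulk RNA, fewer cells of a type and less RNA per cell cannot be told apart. The 9 listed of 13 lymphoid markers summed to 0.73 and 1.09 FPKM, with 2 and 1 of them at 0, and the 10 stromal markers to 14.9 and 13.3 FPKM. Estimated from the spacing of low values, the libraries held between 18800000 and 19250000 reads, the highest at 8 h and the lowest at 12 h. Between 52.5% and 64.5% of the values used fell on whole reads at those depths, against 28.0% to 29.6% by chance, so the depths are approximate.

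The median gene stood 0.12 higher at 12 h than at 8 h on the log2(FPKM + 1) scale, and every difference below has that shift subtracted (a centred log2 difference, where 1 is a 2-fold change). Differences between other times are centred likewise: the median gene differed by -0.70 from 0 to 4 h, by 0.15 from 4 to 8 h, by 0.22 from 12 to 24 h, by 0.49 from 4 to 24 h and by -0.11 from 0 to 24 h. Levels in FPKM are given as deposited. By that measure 158 genes rose at least 2-fold (1.61% of the 9795), 135 fell at least 2-fold (1.38%), and 9502 lay within 2-fold. The highest difference was 2.20 and the lowest -2.46. Without centring the counts were 253 and 92, which moves the share of calls that are increases from 53.9% to 73.3%. At 1.5-fold, 724 genes were higher (7.39%) and 587 lower (5.99%). Of the 2-fold changes, 90 increases and 112 decreases were in genes that reached 10 FPKM at 8 or 12 h. The scale understates the change of genes near 1 FPKM. With a pseudocount of 5 in place of 1, 57 of the increases and 64 of the decreases kept their call; among the genes described below that lost it are Scd2, Slc40a1, Sesn2, Cxcr4, E2f1, Cebpa, Bhlhe40, Per1, Arg1, Abca1, Echs1, Slc36a1, Nr1d2, Bhlhe41, Gclc, Tef, Nfkbie, Elmo1, Lpl, Igf1, Ccl22, Ppbp, Mad2l1, Tfec, Gas6, Mrc1, Ngp, Tnfsf13, Matk, Bex1 and Gm1673. Without centring, 43 of the 135 decreases were of less than 2-fold, among them Tnf, Nfkbie, Elmo1, Lpl, Igf1, Ccl22, S100a9, Ppbp, Tnfsf13, Matk and Bex1. For the 281 called genes with a transcript length, the 95% Poisson counting intervals at the estimated depths did not overlap between the libraries. These genes were picked by the difference between the same libraries, so this is no separate check of the calls. The intervals cover counting error only, not the variation between cultures. At the 2-fold limit, Gipr was just inside with a difference of 1.001 and Cdk18 just outside with 0.997, and Vopp1 (-1.004) and Rbm7 (-0.997) stood on either side of the lower limit. At the expression limit, Zfp11 was inside with a mean of 1.002 FPKM and Unc5b outside with 0.998.

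**Figure D1:**
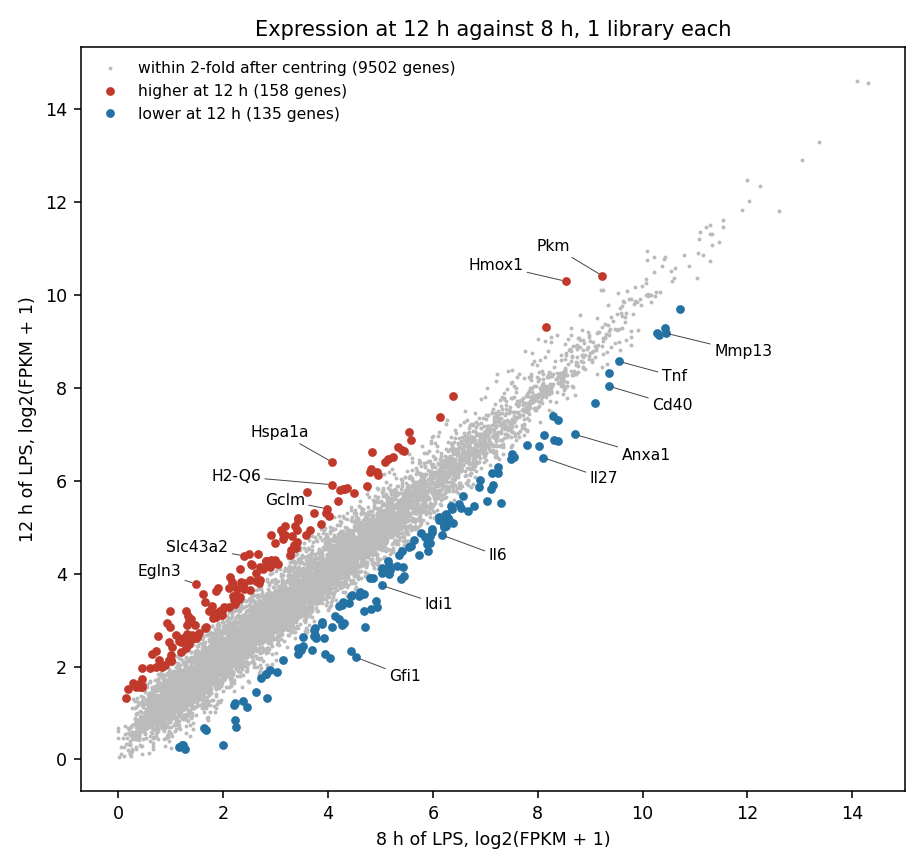
Level of each of 9795 genes at 8 h (x axis) and 12 h (y axis) as log2(FPKM + 1), 1 library each. Red points are the 158 genes at least 2-fold higher and blue points the 135 at least 2-fold lower after centring on the median gene; Hmox1 and Pkm are among the most abundant increases, Mmp13, Tnf and Cd40 among the most abundant decreases.

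Genes that respond to low oxygen or to the transcription factor HIF-1 were mostly higher at 12 h. Of 24 measured, 4 rose 2-fold, none fell, and 13 were past 1.5-fold upward, with a median centred log2 difference of 0.60 against 0 for all genes. Egln3, which encodes a prolyl hydroxylase that marks HIF alpha subunits for degradation and is itself a HIF target, stood at 0.4 FPKM before LPS and 0.38, 1.78, 12.7 and 20.3 FPKM at 4, 8, 12 and 24 h. It was below 2 FPKM in the first 3 libraries and above 10 FPKM in the last 2, and its difference of 2.18 was exceeded by 1 gene, Hspa1a. Ankrd37, another HIF target, stood at 1.31 FPKM before LPS and 0.12, 2.06, 10.8 and 22.5 FPKM at 4, 8, 12 and 24 h, and rose by 1.83. Vegfa, the vascular growth factor, had 20.3 FPKM before LPS and 2.27, 4.79, 17.4 and 19.2 FPKM at 4, 8, 12 and 24 h. Vegfa was therefore lowest at 4 h and by 12 h was close to its level before LPS, with a difference of 1.54. Ero1l, the oxidase that forms disulfide bonds in the endoplasmic reticulum, was higher in each later library, from 8.99 FPKM at 0 h to 19.1 at 8 h, 55.3 at 12 h and 76.2 at 24 h (1.37 in the step).

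The short core of the hypoxia response element, ACGTG, is shown in capitals in the 250 bases before the RefSeq start of Egln3. This window (gene 112407, GRCm38.p6, chr12:54203875-54204124, minus strand) is shown because Egln3 had the highest centred difference outside the Hsp70 genes. The match begins at position -229 relative to the start site.
Egln3: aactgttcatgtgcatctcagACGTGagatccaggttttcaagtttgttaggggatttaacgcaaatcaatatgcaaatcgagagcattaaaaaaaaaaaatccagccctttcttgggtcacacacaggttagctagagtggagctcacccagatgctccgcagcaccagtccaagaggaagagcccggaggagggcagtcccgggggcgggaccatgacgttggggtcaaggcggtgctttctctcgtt
Searched on both strands, this motif was in the windows of 13 of 23 hypoxia-response genes. It was also in 24.4% of 127 windows of genes that rose, 17.8% of 107 of genes that fell and 22.9% of 8001 windows of all genes compared, so its share among the genes that rose was near that of all genes. A match of these letters is a description of the sequence only.

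Glycolysis moved in the same direction as the hypoxia list, with which it shares members. Of 24 glycolytic and lactate export genes 3 rose 2-fold, 12 passed 1.5-fold upward and 1 downward, with a median of 0.59, and their summed level was 5065 FPKM at 8 h and 9182 FPKM at 12 h. Gpi1, which converts glucose 6-phosphate to fructose 6-phosphate, stood at 164 FPKM before LPS and 63.4, 82.96, 225 and 333 FPKM at 4, 8, 12 and 24 h, a rise of 1.31. Pkm, pyruvate kinase, stood at 742 FPKM before LPS and 379, 601, 1361 and 2235 FPKM at 4, 8, 12 and 24 h, a rise of 1.06. Eno1, enolase, went from 285 to 636 FPKM and rose by 1.03. All 3 were lowest at 4 h and highest at 24 h. Pfkp, the platelet form of phosphofructokinase, was the one gene past 1.5-fold in the other direction, from 32.7 to 19.3 FPKM, a difference of -0.85. Gapdh, often used as a reference, went from 1088 to 1958 FPKM, a difference of 0.73. In the pentose phosphate pathway 1 of 9 genes, G6pdx, the enzyme of its first step, was past 1.5-fold, at 63.4 to 124 FPKM (difference 0.84). The 23 genes of the TCA cycle had a median of -0.03 with 1 past 1.5-fold upward, Idh1, a cytosolic NADP-dependent isocitrate dehydrogenase (0.59). None of the 32 nuclear-encoded respiratory chain genes was past 1.5-fold in either direction (median -0.15, from -0.46 to 0.23).

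Targets of NRF2, which controls glutathione synthesis and the removal of peroxides and heme, had the highest median among the 49 lists in the main setting. Of 23 measured, 5 rose 2-fold, none fell, and 12 were past 1.5-fold upward (median 0.61). The hypoxia and glycolysis medians were close to it, at 0.60 and 0.59. Hmox1, which breaks down heme into iron, carbon monoxide and biliverdin, stood at 177 FPKM before LPS and 44.2, 369, 1255 and 3228 FPKM at 4, 8, 12 and 24 h. Its level fell below that of the unstimulated culture at 4 h, passed it by 8 h, and at 12 h was among the most abundant of all the increases, with a difference of 1.64. Gclm and Gclc encode the modifier and catalytic subunits of the enzyme that limits glutathione synthesis. Gclm stood at 39.6 FPKM before LPS and 14.3, 14.8, 41.1 and 136 FPKM at 4, 8, 12 and 24 h; it was flat from 4 to 8 h and rose by 1.30 in the next 4 hours. Gclc went from 4.02 to 10.3 FPKM (1.05), and Srxn1, which restores oxidized peroxiredoxins, from 29.4 to 71.7 FPKM (1.14). The transcript of NRF2 itself, Nfe2l2, was not among them: it stood at 118 to 89.5 FPKM, a difference of -0.52.

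Beside Hmox1, 3 transporters of heme or iron rose, named here for their difference; others, such as Slc11a1 (0.85), Slc11a2 (-0.37), Abcb10 (-0.44) and Slc39a14 (-0.57), lay within 2-fold on either side. Slc48a1, which carries heme out of the lysosome, stood at 158 FPKM before LPS and 35.7, 32.8, 83.7 and 284 FPKM at 4, 8, 12 and 24 h, a rise of 1.20. Slc40a1, the iron exporter ferroportin, stood at 67.1 FPKM before LPS and 1.84, 1.51, 7.52 and 32.9 FPKM at 4, 8, 12 and 24 h, a rise of 1.64. Mfsd7b, which encodes the heme exporter FLVCR1, stood at 35.1 FPKM before LPS and 3.74, 2.65, 11.4 and 25.3 FPKM at 4, 8, 12 and 24 h, a rise of 1.64. All 3 had their highest level at 0 or 24 h and their lowest at 8 h. The ferritin chains, which store iron, were far more abundant and moved less: Fth1 went from 20058 to 24090 FPKM (0.14) and Ftl1 from 4092 to 5686 FPKM (0.35). Steap4, a metalloreductase, fell from 18.3 to 6.44 FPKM (-1.49) and was listed at 0 at 0 h.

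**Figure D2:**
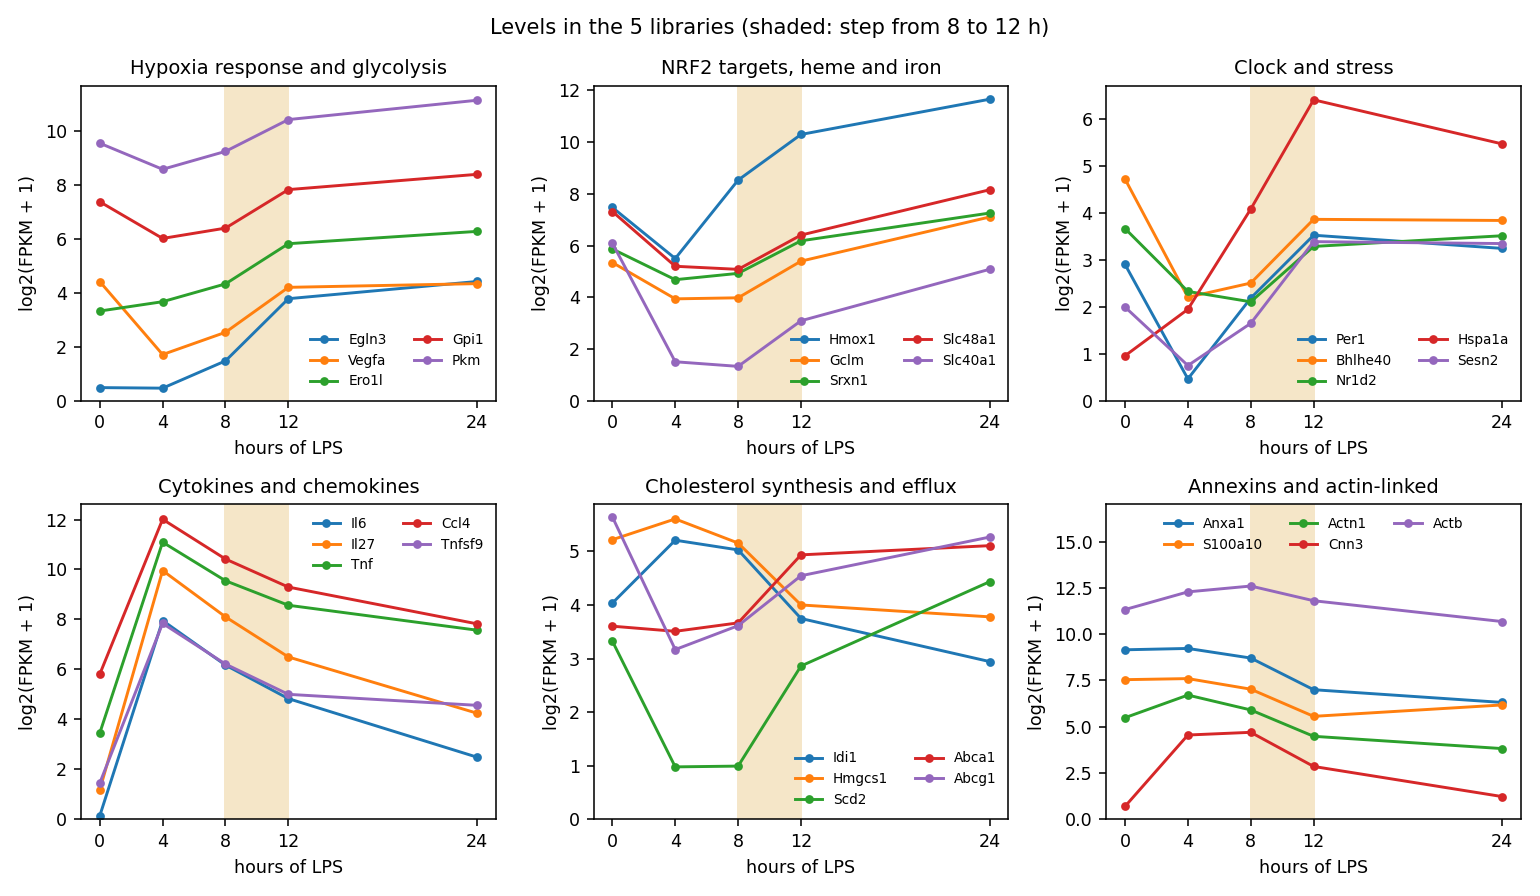
Levels of 30 genes as log2(FPKM + 1) (y axes) at 0, 4, 8, 12 and 24 h of LPS (x axes), 1 library per point, with the step from 8 to 12 h shaded. Hypoxia, NRF2, clock and stress genes climb in the shaded interval, while the cytokines, Idi1, Hmgcs1 and the annexin and actin-linked genes drop.

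The largest centred difference of any gene belonged to the inducible Hsp70 chaperone. It is encoded by the near-identical genes Hspa1a and Hspa1b, whose reads the counting may have divided between them. By the ratio of FPKM, some genes of lower level rose more, such as Egln3 (7.15 against 5.26 for Hspa1a). Hspa1a stood at 0.94 FPKM before LPS and 2.85, 15.9, 83.6 and 43.1 FPKM at 4, 8, 12 and 24 h, a rise of 2.20. Hspa1b stood at 0.54 FPKM before LPS and 3.27, 11.1, 52.8 and 27.3 FPKM at 4, 8, 12 and 24 h, a rise of 2.03. Both peaked at 12 h. Of 20 cytosolic chaperones measured, no further gene rose 2-fold: Hsph1, a partner of Hsp70, went from 9.14 to 18.4 FPKM (0.82), Stip1, which links Hsp70 to Hsp90, from 113 to 72.9 FPKM (-0.74), and the list median was 0.10. Of 23 chaperones and sensors of the endoplasmic reticulum none passed 2-fold and 3 passed 1.5-fold upward (median 0.17), with Ern1, the sensor IRE1 alpha, highest at 0.86.

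The windows of 250 bases before the start sites of both genes are printed because they show how alike the copies are: 247 of 250 bases were identical (98.8%). Capitals mark the letters GAANNTTC, the core repeat of a heat shock element, a motif added after the values were seen, which begins at position -104 in both (Hspa1a, gene 193740, chr17:34972157-34972406; Hspa1b, gene 15511, chr17:34959239-34959488; both GRCm38.p6, minus strand, from RefSeq).
Hspa1a: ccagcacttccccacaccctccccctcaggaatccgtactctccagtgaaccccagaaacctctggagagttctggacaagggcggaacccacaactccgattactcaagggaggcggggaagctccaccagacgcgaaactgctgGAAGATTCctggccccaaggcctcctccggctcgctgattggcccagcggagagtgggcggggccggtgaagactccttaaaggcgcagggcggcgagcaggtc
Hspa1b: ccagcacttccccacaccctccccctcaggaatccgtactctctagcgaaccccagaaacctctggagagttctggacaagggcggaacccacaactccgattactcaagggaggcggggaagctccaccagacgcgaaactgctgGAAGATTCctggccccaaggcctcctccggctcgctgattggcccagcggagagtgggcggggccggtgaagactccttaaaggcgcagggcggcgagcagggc
The motif, which reads the same on both strands, was in 4.7% of the windows of genes that rose, 3.7% of those that fell and 4.9% of all, and in those of 5 of 16 cytosolic chaperones.

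Stress genes driven by the transcription factor ATF4 were partly higher. Of 22 measured, 2 rose 2-fold, 9 passed 1.5-fold upward and 2 downward (median 0.31). Sesn2, a stress-induced restraint on the growth kinase mTORC1, stood at 2.98 FPKM before LPS and 0.68, 2.13, 9.44 and 9.15 FPKM at 4, 8, 12 and 24 h, a rise of 1.62. Gdf15, a secreted stress cytokine, stood at 30.3 FPKM before LPS and 65.5, 41.5, 100 and 50.1 FPKM at 4, 8, 12 and 24 h, a rise of 1.13 that left 12 h as its highest library. Nupr1 went the other way, from 323 to 206 FPKM (-0.77), as did Psat1, a serine synthesis enzyme, from 39.04 to 24.9 FPKM (-0.75). Among 18 amino acid transporters 2 rose. Slc43a2, a carrier of large neutral amino acids, stood at 109 FPKM before LPS and 7.24, 4.27, 19.9 and 72.99 FPKM at 4, 8, 12 and 24 h. Its level was lowest at 8 h, and the rise of 1.86 was the fourth highest among genes that reached 10 FPKM. Slc36a1, a lysosomal proton-coupled carrier, went from 3.82 to 9.96 FPKM (1.06). Of 20 cytosolic tRNA synthetases 4 passed 1.5-fold upward and 1, Wars (-0.68), downward.

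The circadian clock list had the highest share of 2-fold increases, 5 of its 12 measured genes, with none lower and a median of 0.38. Per1, a repressor of the clock, stood at 6.46 FPKM before LPS and 0.38, 3.54, 10.5 and 8.45 FPKM at 4, 8, 12 and 24 h, a rise of 1.22. Bhlhe40 stood at 25.3 FPKM before LPS and 3.6, 4.67, 13.5 and 13.3 FPKM at 4, 8, 12 and 24 h, a rise of 1.24, and its relative Bhlhe41 went from 8.69 to 20.3 FPKM (1.01); both encode repressors that bind the same E-box as the clock activators. Nr1d2, the nuclear receptor REV-ERB beta, went from 3.3 to 8.73 FPKM (1.06), and Tef, a PAR bZIP factor, from 1.56 to 4.59 FPKM (1.01). All of these had been higher at 0 h than at 4 h. The activator Arntl stayed low, at 1.68 to 1.38 FPKM (-0.29). Whether the hour of the day differed between harvests is not given in the sources used here.

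In lipid metabolism, the medians of sterol synthesis and of sterol export lay on opposite sides of the median gene. Of 25 cholesterol synthesis genes 2 fell 2-fold and 6 passed 1.5-fold downward, with 1 past it upward (median -0.24). Hmgcs1, which makes HMG-CoA at the start of the pathway, stood at 36.2 FPKM before LPS and 47.6, 34.6, 14.99 and 12.7 FPKM at 4, 8, 12 and 24 h, and fell by 1.28. Idi1, the isopentenyl diphosphate isomerase, stood at 15.4 FPKM before LPS and 35.9, 31.6, 12.4 and 6.69 FPKM at 4, 8, 12 and 24 h, and fell by 1.40. Sc5d (-0.82) and Msmo1 (-0.77), enzymes of late steps, were past 1.5-fold in the same direction. Dhcr7, the last enzyme of one branch, was the exception, from 1.0 to 2.59 FPKM (0.72). The 14 targets of the oxysterol receptor LXR and cholesterol exporters had a median of 0.29, with 2 up 2-fold and none down. Abca1, which loads cholesterol onto apolipoproteins, stood at 11.2 FPKM before LPS and 10.4, 11.7, 29.6 and 33.4 FPKM at 4, 8, 12 and 24 h; its differences were 0.60 from 0 to 4 h and 0.01 from 4 to 8 h, and from 8 to 12 h it rose by 1.15. Abcg1, a second exporter, went from 11.2 to 22.3 FPKM (0.81). Scd2, a stearoyl-CoA desaturase, stood at 9.01 FPKM before LPS and 0.97, 0.99, 6.26 and 20.6 FPKM at 4, 8, 12 and 24 h, a rise of 1.75. Apoe, one of the 5 most abundant genes at 12 h, went from 8476 to 7651 FPKM (-0.27).

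All 12 measured genes of fatty acid synthesis and desaturation were above the median gene, though only Scd2 rose 2-fold (median 0.27, from 0.07 to 1.75). Fatty acid oxidation had a median of 0.05 over 19 genes and 1 increase, Echs1, the enoyl-CoA hydratase, from 6.44 to 16.7 FPKM (1.13). Of 19 lipid uptake and storage genes 3 passed 1.5-fold upward and 4 downward. Lpl, lipoprotein lipase, stood at 974 FPKM before LPS and 374, 150, 77.2 and 22.1 FPKM at 4, 8, 12 and 24 h, lower at each later time, and fell by 1.07 in this step. Mgll, which breaks down monoglycerides, had -0.97, the lipid receptor Pparg -0.88 and the scavenger receptor Cd36 -0.80, against 0.77 for Scarb1, the receptor for high-density lipoprotein.

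Several of the 20 highest increases were in genes whose level had dropped by 4 h of LPS. Inpp5d, the inositol phosphatase SHIP1 that restrains PI3-kinase signalling, stood at 45.8 FPKM before LPS and 2.91, 6.49, 27.4 and 57.03 FPKM at 4, 8, 12 and 24 h, a rise of 1.80. Mknk2, a kinase of the translation factor eIF4E, stood at 67.8 FPKM before LPS and 2.61, 7.64, 29.7 and 39.5 FPKM at 4, 8, 12 and 24 h, a rise of 1.71. Appl2, an endosomal adaptor, stood at 29.8 FPKM before LPS and 3.33, 4.61, 20.6 and 31.2 FPKM at 4, 8, 12 and 24 h, a rise of 1.82. All 3 lost most of their level by 4 h and had regained part of it by 12 h. The same order held for Tmem86a, a lysoplasmalogenase (3.35 to 14.1 FPKM, 1.68, from 70.95 FPKM at 0 h), Pdxk, pyridoxal kinase (3.97 to 16.2 FPKM, 1.67, from 80.2), and Rab7b, a late endosomal GTPase (7.81 to 27.9 FPKM, 1.59, from 97.9). Tmem104 (1.74), Arhgap27, a GTPase-activating protein (1.67), and Kcnab2, a potassium channel subunit (1.64), were also among the 20.

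Among 27 macrophage transcription factors 3 rose and 1 fell, with 6 past 1.5-fold downward (median -0.28). Cebpa, a factor of myeloid differentiation, stood at 93.99 FPKM before LPS and 2.04, 2.3, 8.22 and 19.1 FPKM at 4, 8, 12 and 24 h, a rise of 1.36. Bhlhe40 also rose. Tfec, a macrophage-enriched relative of MITF, went from 24.9 to 10.8 FPKM and fell by 1.25. Among 32 chemokine and cytokine receptors Cxcr4, the receptor for CXCL12, rose from 1.6 to 7.1 FPKM (1.52), far under its 142 FPKM at 0 h, and Cd40, a costimulatory receptor, fell from 659 to 261 FPKM (-1.45).

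Genes linked to alternative activation and repair were split, with 3 of 17 higher, 2 lower, and a median of -0.19. Vegfa rose, as did Tgfbi, a secreted matrix protein, at 36.7 FPKM before LPS and 7.04, 7.86, 25.9 and 437 FPKM at 4, 8, 12 and 24 h (1.48), and Arg1, arginase 1, which stayed low at 0.14 to 1.86 FPKM (1.21) before reaching 21.8 FPKM at 24 h. Mrc1, the mannose receptor, fell from 15.8 to 6.21 FPKM (-1.34), and Igf1 from 17.5 to 8.91 FPKM (-1.02). Of 19 efferocytosis genes, which serve the uptake of dead cells, 1 rose and 2 fell. Cd300lf, a receptor for phospholipids on dying cells, stood at 11.4 FPKM before LPS and 2.22, 9.69, 34.8 and 69.2 FPKM at 4, 8, 12 and 24 h, a rise of 1.62. Gas6, the ligand that bridges phosphatidylserine to the receptors AXL and MERTK, stood at 235 FPKM before LPS and 63.7, 17.4, 7.15 and 19.3 FPKM at 4, 8, 12 and 24 h, a fall of 1.30. Elmo1, which acts in engulfment, fell from 12.4 to 6.12 FPKM (-1.03). Among 18 matrix proteases and inhibitors Adam8 rose from 27.3 to 75.7 FPKM (1.32) and Mmp13, a collagenase, fell from 1385 to 578 FPKM (-1.38).

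The highest increases held several members of gene families with near-identical copies, between which reads may have been divided. H2-Q6, H2-Q8 and H2-Q7, nonclassical MHC class I genes of the Qa-2 region, rose by 1.73, 1.65 and 1.18. H2-Q6 stood at 0.47 FPKM before LPS and 3.28, 15.8, 59.4 and 65.4 FPKM at 4, 8, 12 and 24 h, lowest before LPS and higher in each later library. Over all 17 genes of class I presentation the median was 0.00, and the peptide transporter Tap1 went from 308 to 261 FPKM (-0.36). Ly6i, a GPI-anchored surface protein, stood at 0.2 FPKM before LPS and 1.64, 9.73, 35.96 and 87.99 FPKM at 4, 8, 12 and 24 h, a rise of 1.66. Of 13 genes of MHC class II and costimulation 12 were below the median gene (median -0.36), with Cd40 the one 2-fold decrease and Cd86 at -0.52.

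Inflammatory cytokines had the lowest median of the 49 lists. Of 19 measured, 5 fell 2-fold, 10 passed 1.5-fold downward and none rose (median -0.60). Il27, the p28 subunit of interleukin 27, stood at 1.26 FPKM before LPS and 993, 274, 89.4 and 18.0 FPKM at 4, 8, 12 and 24 h, and fell by 1.73. Il6 stood at 0.1 FPKM before LPS and 247, 71.2, 27.5 and 4.61 FPKM at 4, 8, 12 and 24 h, and fell by 1.46. Tnf stood at 9.93 FPKM before LPS and 2183, 748, 379 and 189 FPKM at 4, 8, 12 and 24 h, and fell by 1.10. All 3 peaked at 4 h and were still above their level at 0 h when the step ended. The TNF family ligands Tnfsf9 (73.2 to 31.1 FPKM, -1.33) and Tnfsf15 (57.02 to 26.6 FPKM, -1.19) fell with them. Osm, at 3.92 to 6.72 FPKM, had the highest value of the list (0.53).

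Chemokines followed: 3 of 19 fell 2-fold, 7 passed 1.5-fold downward and 1 upward (median -0.55). Ccl4 stood at 54.99 FPKM before LPS and 4122, 1368, 628 and 226 FPKM at 4, 8, 12 and 24 h, a fall of 1.24, and Ccl3 went from 1671 to 833 FPKM (-1.12); both attract monocytes and T cells. Ccl22, a ligand of CCR4, went from 34.7 to 17.2 FPKM (-1.09). Cxcl3, a neutrophil attractant, was the exception at 6.13 to 13.4 FPKM (0.89). Ccl5, one of the 5 most abundant genes at 12 h, held its level, 10475 to 10084 FPKM (-0.18).

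The inhibitors that limit Toll-like receptor signals also had a median below the median gene. Of 24 measured, 3 fell 2-fold, 7 passed 1.5-fold downward and 1 upward (median -0.38). Tnip3, a partner of the deubiquitinase A20, stood at 7.57 FPKM before LPS and 272, 315, 117 and 49.8 FPKM at 4, 8, 12 and 24 h, a fall of 1.54 from its highest library. Dusp2, a nuclear MAP kinase phosphatase, went from 186 to 89.95 FPKM (-1.16), and Nfkbie, an inhibitor of NF-kB, from 80.7 to 42.8 FPKM (-1.02). Tnfaip3, which encodes A20, had -0.91, and the phosphatase Dusp4 had 0.84. The survival genes Bcl2a1d and Bcl2a1b, near-identical copies of an NF-kB-induced antagonist of cell death, went from 334 to 115 FPKM (-1.65) and from 544 to 204 FPKM (-1.53). They were the 2 decreases among 25 genes of apoptosis and cell death (median -0.31). Ptx3, a soluble pattern recognition protein, fell from 60.95 to 24.4 FPKM (-1.41). S100a9 fell from 89.3 to 44.3 FPKM (-1.11); it and Ngp (11.96 to 4.1 FPKM, -1.47) are also neutrophil markers, the list whose sum dropped from 261 to 188 FPKM, and the part of such cells in these changes was not tested. Slpi, a protease inhibitor in the same list of 23 antimicrobial and acute-phase genes, rose from 45.9 to 132 FPKM (1.38), and Saa3, the most abundant gene at 12 h, went from 17416 to 24852 FPKM (0.39).

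Of 10 promoter motifs searched, GAANNTTC among them, the AP-1 site TGANTCA differed most in share between the genes that fell and all genes. It was in 15 of the 107 windows of genes that fell (14.0%), in 2.4% of those of genes that rose and in 4.3% of all 8001. Over all 27025 promoters available, also of genes not compared, the share was 6.9%. The 15 include both near-identical genes Bcl2a1b and Bcl2a1d. Windows of genes that fell had a median GC content of 57.6%, against 61.6% for genes that rose and 60.0% for all. The part of base composition in the motif shares was not tested. The other 9 shares for the genes that fell ran from 3.7% against 4.9% of all (GAANNTTC) to 35.5% against 36.7% (CCAAT). The NF-kB site motif stood at 29.9% of the genes that fell, 26.0% of those that rose and 21.9% of all. Every motif was read on both strands. Of the 15 windows 5 overlap no GENCODE exon, and 4 of these are shown to place the match in its context, with the AP-1 letters in capitals (RefSeq starts, GRCm38.p6, plus strand: Il6, chr5:30012864-30013113, match at -249; Mmp13, chr9:7272264-7272513, match at -35; Nfkbie, chr17:45555450-45555699, match at -156; Ppbp, a platelet-type chemokine, chr5:90768268-90768517, match at -204).
Il6: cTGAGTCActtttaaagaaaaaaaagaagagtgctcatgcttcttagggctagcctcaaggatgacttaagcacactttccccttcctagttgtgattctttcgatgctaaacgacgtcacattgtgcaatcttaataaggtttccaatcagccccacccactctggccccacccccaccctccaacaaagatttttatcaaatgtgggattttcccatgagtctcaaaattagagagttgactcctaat
Mmp13: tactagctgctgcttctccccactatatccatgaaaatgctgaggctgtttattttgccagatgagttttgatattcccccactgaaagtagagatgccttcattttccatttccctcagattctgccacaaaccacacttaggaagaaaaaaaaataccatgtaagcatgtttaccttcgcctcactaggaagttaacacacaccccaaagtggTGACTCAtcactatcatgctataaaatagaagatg
Nfkbie: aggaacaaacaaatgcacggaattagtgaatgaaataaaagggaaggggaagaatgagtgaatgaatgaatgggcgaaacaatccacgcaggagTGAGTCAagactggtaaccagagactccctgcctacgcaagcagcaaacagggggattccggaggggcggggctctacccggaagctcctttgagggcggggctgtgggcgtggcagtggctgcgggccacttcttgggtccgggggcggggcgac
Ppbp: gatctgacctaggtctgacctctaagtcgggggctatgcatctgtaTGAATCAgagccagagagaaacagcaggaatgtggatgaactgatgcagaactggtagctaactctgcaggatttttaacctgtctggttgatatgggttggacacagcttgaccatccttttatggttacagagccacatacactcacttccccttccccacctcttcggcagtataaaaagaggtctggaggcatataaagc
These 4 genes had differences of -1.46, -1.38, -1.02 and -1.02. The windows of 14 immediate early genes held no such match, and binding was not measured.

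The lowest differences lay outside the cytokine lists. Gfi1, a transcriptional repressor of myeloid cells, stood at 0.1 FPKM before LPS and 11.9, 22.2, 3.59 and 0.14 FPKM at 4, 8, 12 and 24 h. It was near 0.1 FPKM in the first and last libraries, peaked at 8 h, and fell by 2.46, the lowest value of any gene compared. Sbds, which acts in the maturation of the large ribosomal subunit, stood at 30.3 FPKM before LPS and 223, 156, 44.8 and 40.8 FPKM at 4, 8, 12 and 24 h, a fall of 1.89. Snn (-2.22), Fam129a (-1.96), Hopx (-1.80) and Sh3bgrl2 (-1.77) had each been higher at 4 h than at 0 h. Calcrl, a receptor subunit for adrenomedullin and CGRP, fell from 40.7 to 13.7 FPKM (-1.63), and Cd83, a marker of activation, from 42.6 to 14.5 FPKM (-1.61).

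The 20 lowest differences also held Anxa1 and its family's partner S100a10, and genes whose products bind actin. Anxa1, a phospholipid-binding protein known for limiting inflammation, stood at 568 FPKM before LPS and 598, 417, 127 and 78.4 FPKM at 4, 8, 12 and 24 h, a fall of 1.83. Its difference from 0 to 4 h was 0.77, and of the later steps the one from 8 to 12 h was the lowest. S100a10, the partner of annexin A2, stood at 185 FPKM before LPS and 193, 129, 46.2 and 71.3 FPKM at 4, 8, 12 and 24 h, a fall of 1.59 to its lowest library. Actn1, alpha-actinin, stood at 43.8 FPKM before LPS and 104, 58.9, 21.4 and 13.1 FPKM at 4, 8, 12 and 24 h, a fall of 1.54. Cnn3, an actin-binding calponin, stood at 0.62 FPKM before LPS and 22.5, 24.9, 6.23 and 1.34 FPKM at 4, 8, 12 and 24 h, a fall of 1.96. Septin11 (29.1 to 9.67 FPKM, -1.62) and Rcsd1, which binds actin capping protein (27.4 to 8.41 FPKM, -1.71), changed alike. Actb, counted among 15 reference genes, went from 6187 to 3570 FPKM (-0.91), while the median of those 15 was -0.03.

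Few genes of the antiviral and housekeeping groups passed 2-fold, which was also true of all genes (1.61% higher and 1.38% lower). At 1.5-fold the shares over all genes were 7.39% and 5.99%. None of 34 interferon-stimulated genes passed 2-fold and 2 passed 1.5-fold, both downward, Ifi35 (-0.64) and Ifih1 (-0.61), with a median of -0.23 and 28 of 34 below the median gene. Of 13 guanylate-binding proteins and immunity-related GTPases none passed 2-fold (median -0.18), with Gbp5 lowest at -0.80. With the trend in expression level removed, the medians of these interferon-stimulated and GTPase lists turned to just above 0. Of 25 pattern recognition receptors 5 passed 1.5-fold downward, among them Clec7a, a receptor for fungal glucans (-0.85), and none upward. Of 32 cytosolic ribosomal proteins 31 were below the median gene and 1 passed 1.5-fold downward. Their differences lay between -0.61 and 0.11, with a median of -0.33. These are abundant genes, with a summed level of 8309 FPKM at 8 h. With the trend in level removed, Anxa2 (311 FPKM at 8 h) moved from -1.02 to -0.77, and Zyx (179 FPKM) from -1.15 to -0.935. The part of that trend in the ribosomal median is not given here. The 30 lysosome and autophagy genes stood at a median of 0.08, with 5 past 1.5-fold upward, among them Tfeb, the regulator of lysosomal genes (0.91). Cell cycle genes gave 1 increase, E2f1 (4.03 to 13.1 FPKM, 1.37), among 27 of G1/S and 1 decrease, Mad2l1, a spindle checkpoint gene (10.5 to 4.43 FPKM, -1.20), among 10 of G2/M. Of 20 genes that write, erase or read H3K36 methylation none passed 2-fold, and Setd2 went from 6.57 to 8.13 FPKM (0.15).

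**Figure D3:**
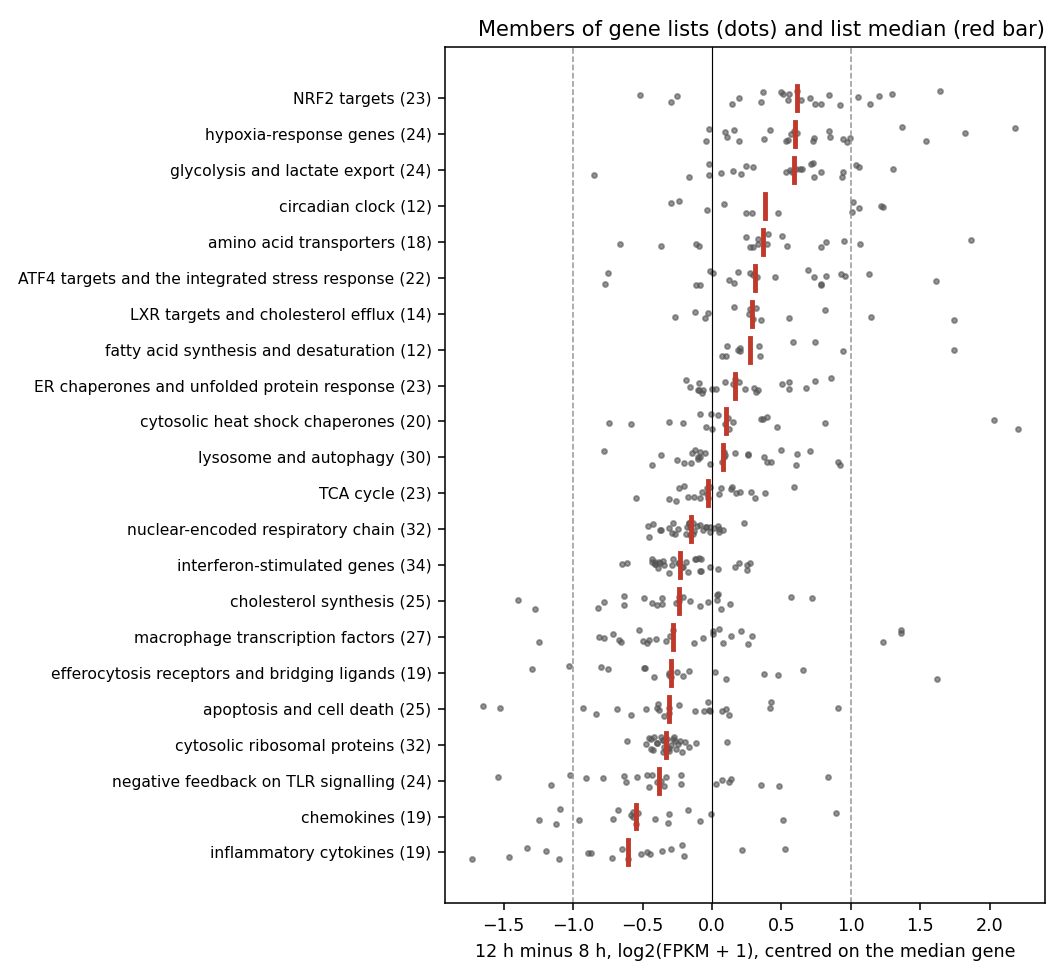
Centred log2 difference between 12 h and 8 h (x axis) of each measured member (grey dots) of 22 gene lists, with the number of members in brackets and the list median as a red bar; dashed lines mark 2-fold. NRF2, hypoxia and glycolysis lists lie highest, with medians near 0.6, and cytokines and chemokines lowest, with medians of -0.60 and -0.55.

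The levels of the changed genes in the libraries that the step did not use place them in the time course. Of the 158 that rose, 138 (87.3%) had risen 2-fold or more from the 4 h to the 24 h library, against 9.65% of all genes, and 1 was lower. The span from 4 to 24 h encloses the step, so choosing genes by the step already favours such a rise. Between 0 and 4 h, 79 of the 158 dropped 2-fold or more (50.0%, against 13.4% of all) and 21 rose as much (13.3%, against 21.5%). The 79 had a median level of 25.95 FPKM before LPS and of 2.19, 3.67, 11.9 and 19.3 FPKM at 4, 8, 12 and 24 h. At 24 h, 51 of them lay within 2-fold of their level at 0 h, a smaller share than the 7362 of all 9795 genes. Of the 79, 11 were 2-fold higher and 17 2-fold lower at 24 h than at 0 h, against 12.6% and 12.3% of all genes. The 79 include Slc43a2, Inpp5d, Mknk2, Appl2, Slc40a1, Vegfa and Cebpa. The 21 that were already higher at 4 h had medians of 0.94, 3.65, 15.8, 54.4 and 50.1 FPKM at 0, 4, 8, 12 and 24 h, and 20 stayed at least 2-fold above 0 h at 24 h. They include Hspa1a, H2-Q6, Ly6i, Slpi, Ero1l and Gdf15. In the remaining 58 the medians were 3.40, 1.45, 3.51, 10.5 and 17.7 FPKM. Of these, 41 ended at least 2-fold higher than at 0 h, against 12.6% of all genes. By FPKM the highest library was 24 h for 83 of the 158 (52.5%, against 24.5% of all genes), 0 h for 55 (34.8%, against 48.7%) and 12 h for 20 (12.7%, against 7.6%); the call itself leaves no peak at 8 h.

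Of the 135 that fell, 131 (97.0%) had dropped 2-fold or more from the 4 h to the 24 h library, against 15.3% of all genes, and 1 was higher. Here too the span encloses the step, so the choice of genes favours such a drop. At 4 h, 110 of the 135 (81.5%, against 21.5% of all) were at least 2-fold above 0 h. Those 110 had a median level of 7.29 FPKM before LPS and of 70.7, 41.7, 19.2 and 8.44 FPKM in the later libraries. At 24 h, 76 of them lay within 2-fold of 0 h. Of the 110, 29 were at least 2-fold above 0 h and 5 at least 2-fold below, against 12.6% and 12.3% of all genes. The share within 2-fold was smaller than that of all genes, 7362 of 9795. Il27, Il6, Gfi1, Mmp13 and Cd40 belong to the 110. Another 20, among them Anxa1 and S100a10, were within 2-fold at 4 h, with medians of 114, 70.8, 35.3, 16.7 and 9.5 FPKM. Of these, 17 ended at least 2-fold below 0 h, against 12.3% of all genes. Gas6, Tnfsf13, Gm1673, Bex1 and Matk were lower already at 4 h. By FPKM the highest library was 4 h for 93 of the 135 (68.9%, against 12.4% of all genes), 8 h for 22 (16.3%, against 6.8%) and 0 h for 19 (14.1%, against 48.7%); the call itself leaves no peak at 12 h.

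**Figure D4:**
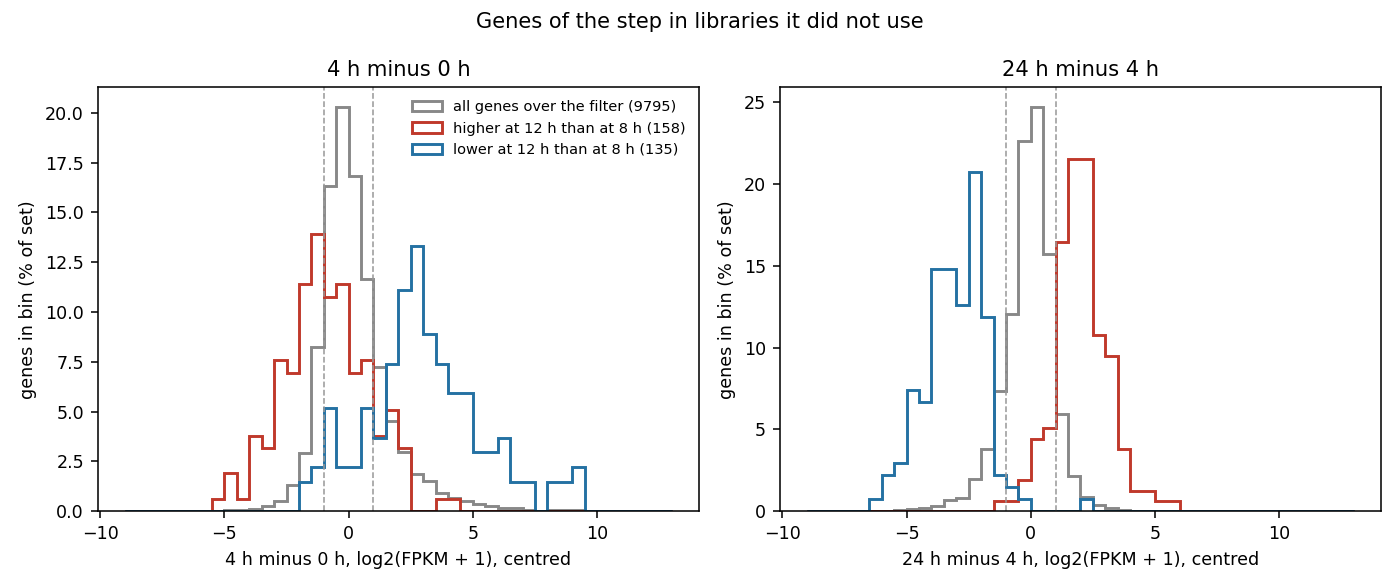
Distribution of the centred log2 difference between 4 h and 0 h (left) and between 24 h and 4 h (right), libraries that the step did not use, for all 9795 genes (grey), the 158 that rose from 8 to 12 h (red) and the 135 that fell (blue); the y axes give the percentage of each set per bin and dashed lines mark 2-fold. At 24 h against 4 h the red set lies mostly right of 1 (138 of 158) and the blue set mostly left of -1 (131 of 135). The span from 4 to 24 h encloses the step, so choosing genes by the step favours both shifts.

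The steps on either side share a library with this one, so their counts are given side by side only. From 4 to 8 h 339 genes rose 2-fold (3.46%) and 525 fell (5.36%), and from 12 to 24 h 148 rose (1.51%) and 555 fell (5.67%). Hmox1 had centred differences of 2.88 from 4 to 8 h, 1.64 from 8 to 12 h and 1.14 from 12 to 24 h. Hspa1a had 1.98, 2.20 and -1.16, and Slc43a2 -0.80, 1.86 and 1.61. Gfi1 had 0.69, -2.46 and -2.23, Il27 -2.01, -1.73 and -2.47, and Anxa1 -0.67, -1.83 and -0.91.

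Changes in the step differed with the base composition of the transcripts, measured on GENCODE models of 9484 genes. Of the 1897 genes with the lowest GC content (median 41.8%) 0.58% rose 2-fold and 1.85% fell, and of the 1897 with the highest (median 58.0%) 2.64% rose and 0.84% fell. The genes that rose had a median GC content of 53.6% and those that fell 48.4%, against 50.0% for all. With the GC trend removed, an alternative added after the data were seen, 142 genes rose and 132 fell, and 132 of the 158 and 125 of the 135 kept their call. By transcript length, 1.42% rose and 2.0% fell among the 1897 shortest (median 1270 nt), and 2.0% and 0.84% among the 1897 longest (median 6469 nt). The part of library preparation in these trends was not tested.

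**Figure D5:**
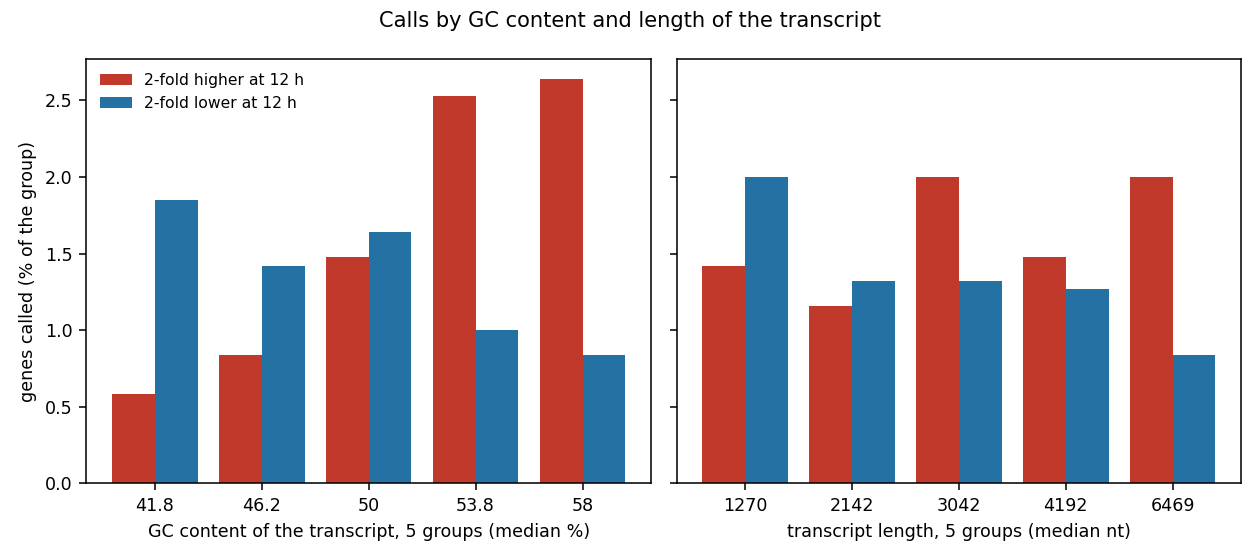
Percentage of genes (y axis) that rose (red) or fell (blue) 2-fold from 8 to 12 h in 5 equal groups by GC content (left) and by transcript length (right), each labelled by its median. Increases go from 0.58% in the group of lowest GC content to 2.64% in the highest, and decreases from 1.85% to 0.84%.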

How the data were processed

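RNA from 1 culture per time was sequenced on the BGISEQ-500 platform, per the labels' protocols. The authors deposited 1 table of FPKM values with 2 decimals for 5 libraries. Bowtie2, RSEM and the GRCm38 build come from the submitters' processing notes, which give no version or order; the annotation was not given in the sources used here. From the deposited FPKM, log2(FPKM + 1) was taken, the 8 h value was subtracted from the 12 h value, and the median over the 9795 genes with a mean of at least 1 FPKM was removed. A gene was called at a centred difference of 1 or more in size. With 1 library a time, no test was run. Symbols of 20 genes stored as dates were restored from their gene identifiers. The 49 gene lists and the genes chosen for description were set with earlier results of these data known. Genes named are the 20 highest and 20 lowest differences among genes of at least 10 FPKM at 8 or 12 h, the 4 members of each list with the largest absolute difference and the largest opposite one, the 5 most abundant genes at 12 h, and Setd2, of which some are not reported here; Gclc, Tnf, Tef, Psat1, Igf1 and Ppbp were chosen after their values were seen. Depth was estimated from low FPKM values as whole reads within 0.04 reads, with lengths from GENCODE M21. Promoter windows are the 250 bases before RefSeq starts (GRCm38.p6), matched for 8001 of 9795 genes (81.7%). The calculation was tested on simulated data. Alternatives were the scaling, the pseudocount, the filter, the fold and trends in length, level and GC content. Python 3.11.15, pandas 2.3.3, numpy 2.4.6, scipy 1.17.1 and matplotlib 3.10.9 were used.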

Additional observations from a re-analysis of the deposited data

How the results depend on the processing

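No paired analysis was possible because each time has 1 library. The 158 increases and 135 decreases of the main setting became 253 and 92 without centring, 415 and 203 with a pseudocount of 0.1, 57 and 64 with a pseudocount of 5, 724 and 587 at 1.5-fold, and 27 and 19 at 3-fold. Other scalings, filters and removed trends kept the counts within 1.5 times, at 142 to 187 increases and 102 to 132 decreases. No 2-fold call turned to the opposite sign under any setting run. Among the genes described, Tnf, Nfkbie, Lpl, S100a9, Ccl3, Ccl4, Dusp2, Ppbp, Gclc, Tef and Nr1d2 lost their call with the trend in level removed, Pkm, Eno1, Lpl, Igf1, Ppbp and Tef with the trend in GC content removed, and Bhlhe41, S100a9, Ccl3, Ppbp, Bex1 and Tef with the trend in length removed. Of the list medians, 460 values moved by less than 0.25 and 8 by more, among them the circadian clock, 0.38 over 12 genes against 1.06 with a mean of at least 5 FPKM, which leaves fewer genes. Of the named genes, 148 of the values moved by more than 0.25, and all of these came from the pseudocount or the removal of the trend with level. Depth limits genes near 1 FPKM most, and cultures were not replicated, so the variation between cultures is unknown for every gene.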

Other observations

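Several families and functional groups outside the lists above were gathered after the values were seen, so their counts describe these libraries and support nothing further. Among 9 annexins, which bind membrane phospholipids in the presence of calcium, 4 fell 2-fold, none rose, and all 9 were below the median gene (median -0.54), with a summed level of 1982 FPKM at 8 h and 1305 at 12 h. Anxa1 had the lowest difference (-1.83), followed by Anxa3 (-1.15), Anxa7 (-1.02) and Anxa2 (-1.02), while Anxa11 stood at -0.18. Without centring, Anxa2, Anxa7 and, of the next group, Ezr, Lsp1 and Marcks were lower by less than 2-fold. With the trend in level removed, the same genes and also Anxa3, Tpm4, Zyx and Marcksl1 were lower by less than 2-fold. Of the decreases in these groups, Anxa1, Actn1 and Cnn3 kept their call under both settings. Of 23 genes of actin and its binding proteins 8 fell and none rose (median -0.44, summed level 14423 and 9672 FPKM). They included Tpm4, a tropomyosin, from 332 to 157 FPKM (-1.20), Zyx, zyxin, from 179 to 87.4 FPKM (-1.15), Ezr, ezrin, from 81.1 to 40.7 FPKM (-1.10), and Marcksl1 from 1244 to 583 FPKM (-1.21). Myh9, the heavy chain of nonmuscle myosin, lay on the other side at 0.52, and filamin A (Flna) at 0.00. Of 8 S100a genes 2 fell, S100a10 and S100a9. Of 4 Bcl2a1 genes, whose near-identical sequences may divide reads between them, 3 fell (median -1.33). With a pseudocount of 5, Bcl2a1c, Anxa2 and Anxa7 lost their call, as did Ezr, Lsp1 and Marcks of the actin group.

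Several cell surface receptors lay among the increases. Over all genes compared, 1.61% rose 2-fold and 1.38% fell. Siglece, a receptor for sialic acids, went from 17.8 to 54.4 FPKM (1.44) and Siglec1 from 36.7 to 90.0 FPKM (1.15). Of 4 signal-regulatory protein beta genes, which are near-identical copies, 3 rose, and of 6 Cd300 genes 2 rose, Cd300lf (1.62) and Cd300lb (1.06). Of 6 H2-Q genes 4 rose, and their summed level was 381 FPKM at 8 h and 720 at 12 h. Of 8 Ly6 genes Ly6i (1.66) and Ly6a (1.20) rose, and Ly6a reached 541 FPKM at 24 h. Of 21 genes of heme and iron handling 4 rose and 1 fell (median 0.48). Among 14 genes of phosphoinositide and diacylglycerol signalling 3 rose, Inpp5d, Dgkz (1.36) and Pik3r2 (1.17), and 2 fell, Dgka (-1.43) and Mtmr14 (-1.25). Dgkz and Dgka encode 2 diacylglycerol kinases that moved in opposite directions, from 19.7 to 56.5 FPKM and from 14.1 to 5.12 FPKM. With a pseudocount of 5, Pik3r2 (0.687), Dgka (-0.99), Cd300lb (0.545) and H2-Q9 (0.978) lay within 2-fold. So did Gm5150 (0.9), counted among the signal-regulatory protein beta genes. With the trend in level removed, Cd300lb (0.943) was also within 2-fold.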
